A study of Mus musculus with 12 samples.

Results

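Liver mRNA levels of 10 genes that coat, break down or build the triglyceride of lipid droplets were followed in wild type and Siah2 KO mice of both sexes. The genes were taken by symbol (Plin2, Plin5, Cidec, Cideb, Pnpla2, Pnpla7, Gpam, Lpin1, Dgat1 and Dgat2), and all 10 were found among the 23420 gene symbols of the count tables. Livers were collected at ZT10, 10 hours after lights on, from mice of about 20 weeks of age on normal chow and a C57BL/6 background. There were 3 wild type females (WTF), 3 Siah2 KO females (KOF), 3 wild type males (WTM) and 3 Siah2 KO males (KOM), each named here by its mouse number. Siah2 encodes a ubiquitin ligase, and the deletion was constitutive and present in every cell of the KO mice. Wild type and KO animals came from separate homozygous lines founded from the same heterozygous crosses, so the genotype and the line cannot be told apart. Libraries of females and males were indexed in separate blocks and deposited in separate tables, so for comparisons between the sexes the sex and this handling cannot be told apart either. The question asked of each gene was whether its level differed between the genotypes within a sex, and between the sexes within a genotype.

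A hepatocyte stores surplus fatty acid as triglyceride inside lipid droplets, which are covered by a coat of perilipins and CIDE proteins. Lipases at the droplet surface release the fatty acid again for oxidation or for the assembly of lipoproteins. New triglyceride is made by a chain of enzymes that attach fatty acids to glycerol phosphate, remove the phosphate and add the last fatty acid. The mRNAs of several of these proteins follow the daily feeding cycle in liver, and 1 time of day was sampled here.

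The libraries were made with the Lexogen QuantSeq kit, which counts 1 tag near the 3′ end of each transcript, so that a longer transcript does not give more reads. Library totals on genes ran from 1293688 to 4056144 reads. Levels are given in CPM, counts relative to a library total that was scaled by the TMM method, and 3 reads were worth between 0.739 and 2.29 CPM in the different libraries. Hepatocyte markers summed to between 20000 and 37000 CPM in all mice. The 7 adipocyte markers summed to between 49.7 and 128 CPM, and 2 of them, Plin1 and Retn, had no read in any mouse. Xist and Ddx3y matched the sex labels of all 12 mice. Siah2 itself was measured at 11.5 to 17.0 CPM in WTF, 9.63 to 12.5 in KOF, 16.8 to 27.1 in WTM and 9.42 to 17.4 in KOM. Whether its 3′ tag falls within the deleted sequence is not stated in the sources used here, and the genotype cannot be checked from it. WTF 1091 stood apart from the other wild type females, with a root mean square difference in log2 CPM over the tested genes of 0.886 to each of them. The same difference was between 0.462 and 0.664 in all other pairs of mice of 1 group. Values of the members that use it are therefore also given without WTF 1091 where that changed a call or moved them by over 1.5 times.

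**Figure D1:**
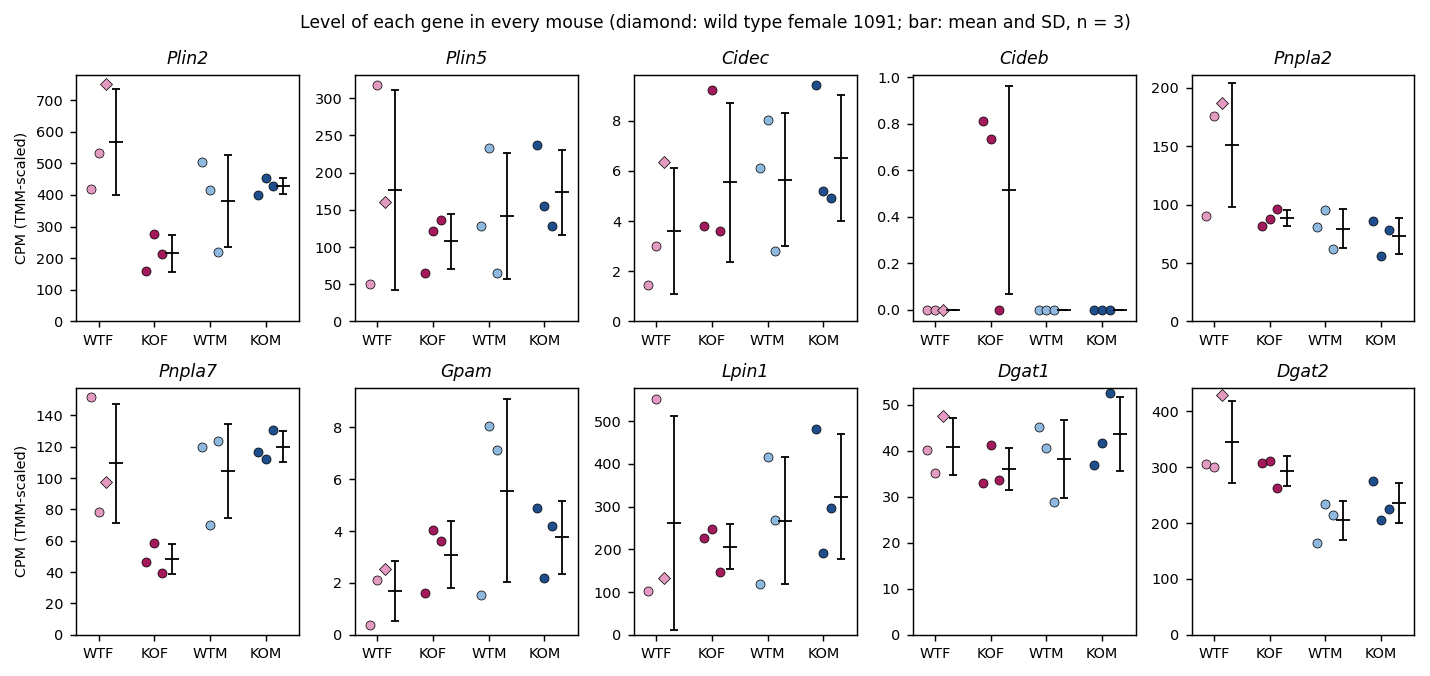
Level in CPM (linear axis from 0) of each of the 10 genes in every mouse, by group, with the group mean and SD (n = 3 mice) beside the points and WTF 1091 as a diamond. The KOF points of Plin2 (159 to 276 CPM) and Pnpla7 (39.7 to 58.5 CPM) lie below all WTF points, and Cideb has reads in 2 mice only.

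Plin2 encodes the main perilipin on hepatocyte droplets, and its mRNA is commonly read as following the droplet content of the cell. The gene lies on chromosome 4 of GRCm38 from 86626910 to 86670217. In wild type females it was measured at 419, 533 and 751 CPM in mice 1089, 1090 and 1091. In Siah2 KO females it was measured at 159, 276 and 213 CPM in mice 1070, 1104 and 1105. Each KO female had less Plin2 than each wild type female, and the highest value of all 12 mice was that of WTF 1091. Wild type males had 504, 417 and 221 CPM in mice 1055, 1086 and 1087, and Siah2 KO males had 401, 454 and 429 CPM in mice 1075, 1076 and 1081. The values of the KO males lay inside the range of the wild type males and were closer together. The group means were 568 ± 169 CPM in WTF, 428 ± 26.9 CPM in KOM, 381 ± 145 CPM in WTM and 216 ± 58.5 CPM in KOF (SD, n = 3 mice each). In that order each group overlapped the next, and KOF was separated without overlap from WTF and from KOM.

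Between KOF and WTF, Plin2 differed by a log2 fold change of −1.41 (SE 0.30), which is a level 0.377 times that of wild type. Its unadjusted p was 0.000904, and after Benjamini-Hochberg adjustment over 9465 genes edgeR's quasi-likelihood test gave an adjusted p of 0.0962, above the threshold of 0.05. DESeq2, the method that the study used, gave the same log2 fold change with an adjusted p of 0.00228. It was run here with other gene exclusions than in the study, and the study's own value was not compared. Without WTF 1091 the log2 fold change was −1.14 (SE 0.23, edgeR adjusted p = 0.014). With any other female left out, the edgeR adjusted p was between 0.155 and 0.351. Over 16 settings, these included, the log2 fold change stayed between −1.62 and −1.13 while the adjusted p ranged from 0.000213 to 0.351. Plin2 was lower in KO females in all 16, and whether it passed the threshold depended on the setting. In males the log2 fold change between KOM and WTM was 0.16 (SE 0.23, edgeR adjusted p = 1.0).

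Pnpla7 encodes a phospholipase of the patatin family that acts on lysophosphatidylcholine and sits at the endoplasmic reticulum and around droplets. The gene lies on chromosome 2 of GRCm38 from 24975990 to 25054072. In wild type females it was measured at 152, 78.6 and 97.8 CPM in mice 1089, 1090 and 1091. In Siah2 KO females it was measured at 46.5, 58.5 and 39.7 CPM in mice 1070, 1104 and 1105. Each KO female was lower than each wild type female, and also lower than each of the 6 males. Wild type males had 120, 69.9 and 124 CPM, and Siah2 KO males had 117, 112 and 131 CPM, so that the males of both genotypes overlapped. The group means were 120 ± 9.75 CPM in KOM, 109 ± 38.0 CPM in WTF, 105 ± 30.3 CPM in WTM and 48.3 ± 9.53 CPM in KOF (SD, n = 3 mice each). The first 3 of these groups overlapped one another.

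Between KOF and WTF, the log2 fold change of Pnpla7 was −1.19 (SE 0.29), a level 0.439 times that of wild type. Its unadjusted p was 0.00235, and the adjusted p was 0.118 by edgeR and 0.0188 by DESeq2. WTF 1091 was not the highest wild type female for this gene, and without it the log2 fold change was −1.24 (SE 0.27, edgeR adjusted p = 0.0194). With any other female left out, the edgeR adjusted p was between 0.144 and 0.354. Over 16 settings the log2 fold change stayed between −1.38 and −0.88, with adjusted p values from 0.00159 to 0.354. The smallest difference was obtained without WTF 1089, the wild type female with the most Pnpla7. In males the log2 fold change was 0.19 (SE 0.20, edgeR adjusted p = 1.0).

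Stellate cell markers summed to 154 to 167 CPM in WTF and to 135 to 147 CPM in KOF, also without overlap, and none of the 6 was at 0 in all mice. Red blood cell markers separated the female groups in the same direction, at 20.1 to 25.2 CPM in WTF and 8.47 to 19.3 CPM in KOF, with 5 of the 7 in the tables and 4 of these 5 at 0 in all mice. The summed adipocyte markers went the other way, with 49.7 to 55.9 CPM in WTF and 58.4 to 111 CPM in KOF, and 2 of the 7 were at 0 in all mice. Hepatocyte markers overlapped, at 24800 to 37000 CPM in WTF and 23600 to 30200 CPM in KOF. The Kupffer and immune, endothelial, bile duct and pancreatic acinar sums overlapped as well. Of all single genes tested in females, 11.9% were lower in KOF without overlap. The part of these cell types in the Plin2 and Pnpla7 differences was not tested, and in bulk liver fewer cells of a type and less RNA per cell cannot be told apart.

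Because Plin2 and Pnpla7 were the 2 members with no overlap between the female groups, their RefSeq promoter windows (GRCm38.p6) are shown, each with 250 bases before and 30 bases after a transcript start. Capitals mark the E-box CACGTG, the motif of the clock activators and of other basic helix-loop-helix factors, and the half-site AGGTCA of nuclear receptors on either strand.
Plin2, chr4:86670030-86670309, minus strand: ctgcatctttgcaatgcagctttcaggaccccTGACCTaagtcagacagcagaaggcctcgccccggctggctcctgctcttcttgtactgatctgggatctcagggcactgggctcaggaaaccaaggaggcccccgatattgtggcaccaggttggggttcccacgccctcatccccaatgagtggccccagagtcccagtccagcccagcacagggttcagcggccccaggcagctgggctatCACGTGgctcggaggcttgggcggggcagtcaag
Pnpla7, chr2:24975783-24976062, plus strand: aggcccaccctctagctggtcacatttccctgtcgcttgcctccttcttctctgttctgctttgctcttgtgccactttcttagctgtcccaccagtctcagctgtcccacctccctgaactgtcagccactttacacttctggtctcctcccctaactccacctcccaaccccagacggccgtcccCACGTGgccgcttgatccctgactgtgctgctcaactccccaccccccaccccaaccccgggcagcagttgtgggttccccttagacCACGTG
The Plin2 window held 1 half-site, beginning at position −218 from the transcript start, and 1 E-box beginning at −4. The Pnpla7 window held 2 E-boxes, beginning at −63 and at 25, and no half-site. Windows of 300 bases were on hand for 8 of the 10 members (11 windows, none for Dgat1 and Dgat2). An E-box stood in 2 of these windows, those of Plin2 and Pnpla7, against 7.15% of 32851 promoter windows of all genes. The half-site stood in 5 windows of 4 members (Plin2, Plin5, Gpam and Lpin1), against 16.3% of all windows. Both strands were searched, and the direct repeat AGGTCANAGGTCA, in which 2 half-sites stand 1 base apart, was in none of the 11 windows and in 0.0396% of all. These matches describe the letters of the windows and say nothing of binding.

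Pnpla2 encodes adipose triglyceride lipase, which removes the first fatty acid from stored triglyceride. The gene lies on chromosome 7 of GRCm38 from 141455188 to 141460743. Wild type females had 90.2, 176 and 187 CPM in mice 1089, 1090 and 1091, and Siah2 KO females had 82.0, 87.6 and 96.3 CPM. Of the wild type females, 1090 and 1091 were high, while 1089 lay inside the KO range. Wild type males had 81.0, 95.5 and 61.9 CPM and Siah2 KO males 85.9, 56.0 and 78.4 CPM. The means were 151 ± 53.0 CPM in WTF, 88.6 ± 7.22 CPM in KOF, 79.5 ± 16.9 CPM in WTM and 73.4 ± 15.6 CPM in KOM (SD, n = 3 mice each), and neighbouring groups in this order overlapped. The log2 fold change in females was −0.78 (SE 0.29, unadjusted p = 0.0223, edgeR adjusted p = 0.226), and DESeq2 gave an adjusted p of 0.199. It was −0.59 without WTF 1091 (edgeR adjusted p = 0.163) and between −1.05 and −0.50 over 16 settings, none of which passed the threshold. In males it was −0.12 (SE 0.21).

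Plin5 encodes the perilipin that tethers droplets to mitochondria in tissues that burn fat. It lies on chromosome 17 of GRCm38 from 56111597 to 56117606. Wild type females had 50.2, 318 and 161 CPM, and Siah2 KO females had 65.5, 121 and 136 CPM. Wild type males had 128, 233 and 65.6 CPM and Siah2 KO males 237, 155 and 128 CPM. All 4 groups overlapped, and the highest of the 12 mice had 6.33 times the level of the lowest. The log2 fold change was −0.73 in females (SE 0.54, edgeR adjusted p = 0.569) and 0.28 in males (SE 0.35, adjusted p = 1.0). The female value rested on WTF 1090, without which it was 0.00, and the male value turned to −0.08 without WTM 1087.

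The CIDE proteins fuse droplets at their points of contact, and Cidec is the member known to rise in fatty liver. It lies on chromosome 6 of GRCm38 from 113424634 to 113435760. Cidec had between 4 and 25 reads per mouse, or 1.44, 3.00 and 6.37 CPM in WTF, 3.79, 9.21 and 3.61 in KOF, 6.12, 8.04 and 2.79 in WTM and 9.42, 5.21 and 4.93 in KOM. The groups overlapped in both sexes. Its log2 fold change was 0.60 in females (SE 0.60, edgeR adjusted p = 0.684) and 0.25 in males (SE 0.48, adjusted p = 1.0). WTF 1091 had 287% of the mean Cidec level of the other wild type females, and without it the female log2 fold change was 1.29 (SE 0.62, adjusted p = 0.219). It was 0.24 without WTF 1089 and 0.02 without KOF 1104, the KO female with the most Cidec. Without WTM 1087 the male value was −0.16.

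Cideb, the CIDE protein of hepatocytes that also loads lipid onto very low density lipoproteins, lies on chromosome 14 of GRCm38 from 55754052 to 55758424. It had 5 reads in all, 3 in KOF 1070 and 2 in KOF 1104, and none in the other 10 mice. The edgeR filter left it out of every comparison, and no fold is given. It entered only settings without that filter, with an adjusted p of 0.994 by DESeq2 over both sexes. In RefSeq its span overlaps Nop9 by 1583 bases, a gene measured at a mean of 44.1 CPM here, and Ltb4r2 by 503 bases. The sources used here do not say how reads in shared bases were assigned, so the level of Cideb is uncertain. Spans of other members overlap RefSeq genes too, among them Plin2 with Gm12551 by 5312 bases and Pnpla7 with Gm13369 by 1566 bases.

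Gpam encodes the mitochondrial acyltransferase that attaches the first fatty acid to glycerol phosphate. It lies on chromosome 19 of GRCm38 from 55067635 to 55127319. It had between 1 and 23 reads per mouse, and the edgeR filter left it out of the main comparison within females. Wild type females had 0.361, 2.10 and 2.55 CPM, Siah2 KO females 1.62, 4.05 and 3.61 CPM, wild type males 1.53, 8.04 and 7.12 CPM and Siah2 KO males 4.90, 2.17 and 4.19 CPM. All groups overlapped within each sex, and the log2 fold change in males was −0.65 (SE 0.52, edgeR adjusted p = 1.0). WTF 1089 and WTM 1055 had fewer than 3 reads, the lowest value of their groups. In RefSeq the span of Gpam overlaps the noncoding RNA gene Gm31356 by 18371 bases. How reads in shared bases were assigned is not stated, so the level of Gpam is uncertain as well.

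Lpin1 encodes the phosphatidate phosphatase that makes diacylglycerol, and it is known to respond to fasting. It lies on chromosome 12 of GRCm38 from 16535669 to 16653903. Wild type females had 102, 551 and 132 CPM, and Siah2 KO females had 226, 247 and 146 CPM. Wild type males had 119, 415 and 268 CPM and Siah2 KO males 481, 192 and 297 CPM. All 4 groups overlapped, with means of 262 ± 251 CPM in WTF, 206 ± 53.5 CPM in KOF, 267 ± 148 CPM in WTM and 323 ± 146 CPM in KOM (SD, n = 3 mice each). The log2 fold change was −0.35 in females (SE 0.55, edgeR adjusted p = 0.813) and 0.25 in males (SE 0.36, adjusted p = 1.0). The female value was −0.66 without WTF 1091 (adjusted p = 0.436) and turned to 0.80 without WTF 1090, and the male value turned to −0.13 without KOM 1075. The mouse with the most Lpin1 was also the one with the most Plin5 in WTF (1090), WTM (1086) and KOM (1075), but not in KOF.

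Dgat1 and Dgat2 encode the unrelated enzymes that add the third fatty acid. Dgat1 lies on chromosome 15 of GRCm38 from 76502012 to 76512021 and Dgat2 on chromosome 7 from 99153663 to 99182713. Dgat1 was the steadiest member, with a highest value 1.82 times the lowest over the 12 mice. Its means were 40.9 ± 6.21 CPM in WTF, 36.0 ± 4.56 CPM in KOF, 38.2 ± 8.45 CPM in WTM and 43.7 ± 7.97 CPM in KOM (SD, n = 3 mice each). The log2 fold change of Dgat1 was −0.20 in females (SE 0.24, edgeR adjusted p = 0.747, and −0.06 without WTF 1091) and 0.22 in males (SE 0.23, adjusted p = 1.0). Dgat2 was measured at 306, 300.0 and 429 CPM in WTF, 307, 311 and 263 CPM in KOF, 165, 234 and 215 CPM in WTM and 276, 206 and 225 CPM in KOM. The genotypes overlapped in both sexes, and its log2 fold change was −0.25 in females (SE 0.24, edgeR adjusted p = 0.672, and −0.04 without WTF 1091) and 0.19 in males (SE 0.17, adjusted p = 1.0).

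**Figure D2:**
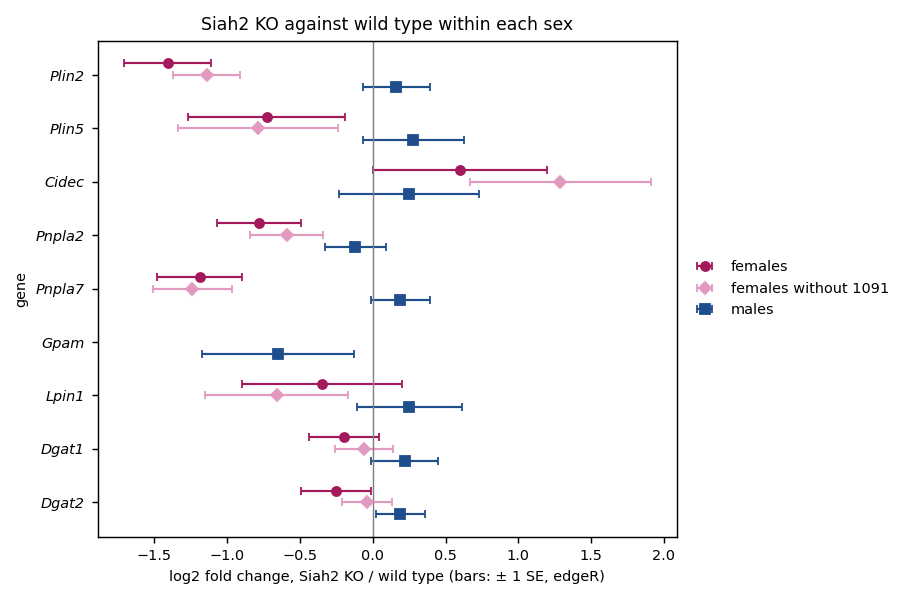
Log2 fold change of each tested gene between Siah2 KO and wild type mice (x axis) in females, in females without WTF 1091 and in males, with bars of 1 standard error from edgeR. Plin2 and Pnpla7 lie at −1.41 and −1.19 in females and at 0.16 and 0.19 in males.

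Of the 8 members tested in females, edgeR called 0, in a comparison in which it called 0 of 9465 genes (0.0%). An unadjusted p under 0.05 was reached by 3 of the 8 (Plin2, Pnpla7 and Pnpla2), all lower in KO females, against 15.6% of all genes tested. DESeq2 called 2 members, Plin2 and Pnpla7, against 3.7% of the genes it tested, and edgeR without WTF 1091 called the same 2, against 9.64%. The groups did not overlap for 2 members, both lower in KOF, against 11.9% of all genes in that direction. The median log2 fold change of the 8 members was −0.54, with 7 below 0, against a median of −0.03 over all genes tested. Because the members were chosen with earlier results of these data known, the comparisons with all genes, here and below, only describe.

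In males, edgeR called 0 of the 9 members tested and 0 of 8823 genes (0.0%), and none of the 9 had an unadjusted p under 0.05, against 4.05% of all genes. DESeq2 also called 0 members, against 0.037% of the genes it tested. The groups overlapped for all 9 members, while 8.87% of all genes did not overlap. The median log2 fold change of the 9 was 0.19, with 7 above 0, against −0.01 over all genes. With both sexes combined and no term for sex, edgeR called 0 of 8 members and 1 of 9020 genes (0.0111%), and DESeq2 also called 0 members, against 0.0056% of the genes it tested. In that comparison the log2 fold change of Plin2 was −0.58 (SE 0.29, adjusted p = 0.869), that of Pnpla2 was −0.54 (SE 0.26, adjusted p = 0.869, and −0.33 without WTF 1091) and that of Pnpla7 was −0.36 (SE 0.29, adjusted p = 0.888).

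**Figure D3:**
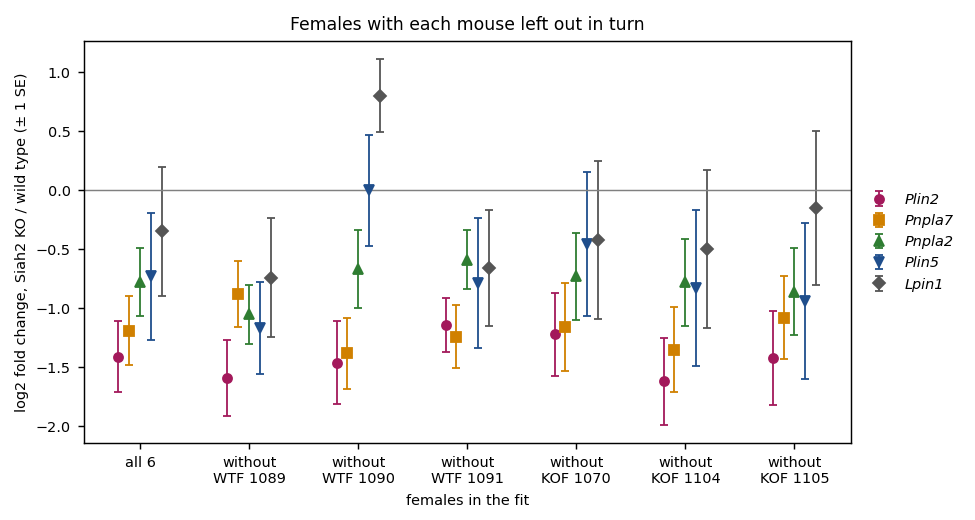
Log2 fold change between Siah2 KO and wild type females (y axis, with bars of 1 standard error from edgeR) for 5 genes in the fit of all 6 females and with each female left out. Plin2 stays between −1.62 and −1.14, Pnpla7 between −1.38 and −0.88 and Pnpla2 between −1.05 and −0.59, while Plin5 reaches 0.00 and Lpin1 turns to 0.80 without WTF 1090.

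Whether the genotype difference itself differed between the sexes was tested in 1 fit of all 12 mice, as the female change with the male change subtracted. For Plin2 this difference was −1.57 on the log2 scale (SE 0.41, unadjusted p = 0.00165, edgeR adjusted p = 0.108). DESeq2 gave an adjusted p of 0.0179, and without WTF 1091 the value was −1.30 (SE 0.37, edgeR adjusted p = 0.0489). For Pnpla7 it was −1.37 (SE 0.38, unadjusted p = 0.00235, edgeR adjusted p = 0.117), with an adjusted p of 0.0303 by DESeq2. Without WTF 1091 it was −1.43 (SE 0.36, edgeR adjusted p = 0.0329). With any other mouse left out, edgeR called neither gene. Over 21 settings the adjusted p ranged from 0.00136 to 0.258 for Plin2 and from 0.00633 to 0.24 for Pnpla7. Of 9 members tested, edgeR called 0, against 25 of 9806 genes (0.255%), while DESeq2 called these 2, against 3.32%, as edgeR did without WTF 1091, against 5.15%. An unadjusted p under 0.05 was reached by 2 of the 9, against 14.1% of all genes. Pnpla2 differed between the sexes by −0.67 (SE 0.38, adjusted p = 0.463), Plin5 by −1.01 (SE 0.74, adjusted p = 0.601) and Gpam by 1.41 (SE 0.92, adjusted p = 0.540), all from edgeR. Cidec, Lpin1, Dgat1 and Dgat2 lay between −0.61 and 0.36, and without WTF 1091 Cidec was at 1.04, Lpin1 at −0.92 and Dgat2 at −0.23, with adjusted p values of 0.531, 0.524 and 0.663.

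The sexes were also compared within each genotype, in the same fit. These comparisons share mice with those above. In wild type mice, 1 of 9 members was called by edgeR, against 5.15% of 9806 genes. Dgat2 was higher in WTF than in WTM by a log2 fold change of 0.75 (SE 0.21, edgeR adjusted p = 0.0494), or 1.68 times, and each of the 3 females was above each of the 3 males. Groups did not overlap in that direction for 11.5% of all genes. The adjusted p of Dgat2 was just under the threshold, and it was above it with any 1 mouse left out other than WTF 1090, at 0.0586 without WTF 1091 and at most 0.193, without WTM 1055. DESeq2 gave 0.0131. DESeq2 called 2 members, Dgat2 and Pnpla2, against 6.95% of the genes it tested, and edgeR without WTF 1091 called 0, against 10.3%. Pnpla2 was higher in WTF by 0.93 (SE 0.27) with an edgeR adjusted p of 0.0542, and DESeq2 gave 0.026. WTF 1089 lay inside the male range of Pnpla2, and without WTF 1091 the value was 0.75 (edgeR adjusted p = 0.0741). The log2 fold change between wild type females and males was −1.76 for Gpam (SE 0.65, adjusted p = 0.141), 0.58 for Plin2 (SE 0.29, adjusted p = 0.283, and 0.33 without WTF 1091) and 0.06 for Pnpla7 (SE 0.26, adjusted p = 0.929, and 0.13 without WTF 1091).

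In Siah2 KO mice, 1 of 9 members was called by edgeR, against 3.59% of 9806 genes. Pnpla7 was lower in KOF than in KOM by a log2 fold change of −1.31 (SE 0.27, edgeR adjusted p = 0.0127), a level 0.404 times that of KO males, with 39.7 to 58.5 CPM against 112 to 131 CPM. DESeq2 gave an adjusted p of 0.000375. With each mouse left out, the value stayed between −1.46 and −1.19, and the adjusted p rose above the threshold without KOF 1070 (0.0708), KOF 1105 (0.0571) or KOM 1081 (0.0651). Plin2 was lower in KOF by −0.99 (SE 0.29) with an edgeR adjusted p of 0.079, and DESeq2 gave 0.0312. DESeq2 called both, against 5.58% of the genes it tested, and so did edgeR without WTF 1091, against 9.6%. WTF 1091 is in neither KO group and enters comparisons of KO sexes only through the fit shared by all 4 groups. Without it Plin2 was at −0.98 (SE 0.25). The KO sexes did not overlap for Plin2 or for Pnpla7, against 15.3% of all genes in that direction. Dgat2 differed between the KO sexes by 0.32 (SE 0.21, adjusted p = 0.457), and here KOM 1075 with 276 CPM lay above KOF 1105 with 263 CPM. The other members lay between −0.70 for Plin5 and 0.27 for Pnpla2, with adjusted p values of 0.530 and 0.662.

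**Figure D4:**
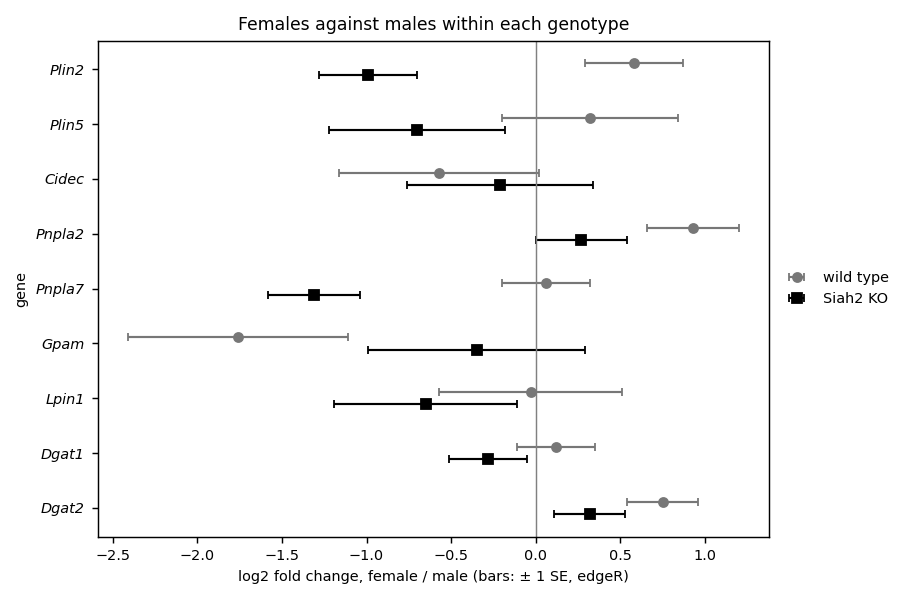
Log2 fold change of each tested gene between females and males (x axis) in wild type and in Siah2 KO mice, with bars of 1 standard error from edgeR. Dgat2 (0.75) in wild type mice and Pnpla7 (−1.31) in KO mice passed the threshold, and Plin2 lies at 0.58 in wild type and −0.99 in KO mice.

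The levels of the members within groups were set against Plin2 after subtracting the group means of log2 CPM from the 12 mice. Cidec varied with Plin2 among mice of the same group, with a Pearson r of 0.784 (exact permutation p = 0.027) and a Spearman rho of 0.727 (exact permutation p = 0.0509). Dgat1 did so with an r of 0.782 (exact permutation p = 0.0185) and a rho of 0.734 (exact permutation p = 0.0216). The r of Cidec rested on the subtraction, being 0.209 on uncentred values (permutation p = 0.512), while that of Dgat1 was 0.686. Neither passed Benjamini-Hochberg adjustment over the 8 relations, with an adjusted p of 0.108 for both r values by exact permutation of mice within groups (two-sided). Without WTM 1055 and WTM 1087, the 2 mice farthest from the median of the centred Plin2 values, r was 0.794 for Cidec and 0.603 for Dgat1. The centring itself was kept from all 12 mice. The other r values were 0.582 for Plin5, 0.571 for Pnpla2, 0.0317 for Dgat2, 0.0236 for Gpam, −0.156 for Lpin1 and −0.256 for Pnpla7, with exact permutation p values between 0.131 and 0.963. Without WTF 1091, r was −0.22 for Dgat2, −0.0882 for Gpam and −0.0725 for Lpin1. Plin2 and Pnpla7 were both lower in KOF than in WTF, while among mice of the same group their r was below 0 (exact permutation p = 0.576).

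Over the 12 mice, the genes most like Plin2 among 6716 that averaged 10 CPM or more were Twistnb (r = 0.919), Dhrs4 (r = 0.918) and Cpt2 (r = 0.917), across mice that differ in group. Cpt2 encodes an enzyme of mitochondrial fatty acid uptake, Dhrs4 a peroxisomal reductase and Twistnb a subunit of RNA polymerase I. Dhrs4 was measured at 390 ± 91.4 CPM in WTF, 208 ± 17.8 CPM in KOF, 258 ± 41.3 CPM in WTM and 294 ± 22.5 CPM in KOM (SD, n = 3 mice each). Without WTF 1091 the 3 values of r were 0.907, 0.892 and 0.913.

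Around the members, 52 other genes of droplet proteins, lipases and their partners, triglyceride synthesis and regulators were listed, of which 51 were in the tables. In females, edgeR called 0 of the 41 tested, with 1 higher and 6 lower in KOF at an unadjusted p under 0.05, against 15.6% of all genes tested, and their median log2 fold change was −0.04. DESeq2 called 1, against 3.7% of the genes it tested. This was Agpat3, which encodes an acyltransferase of phosphatidic acid synthesis. Agpat3 was measured at 132 ± 17.5 CPM in WTF and 68.4 ± 3.12 CPM in KOF (SD, n = 3 mice each), a log2 fold change of −0.96 (SE 0.22) with adjusted p values of 0.105 (edgeR) and 0.0112 (DESeq2). The nuclear receptor gene Esrra was the higher one, at 1.11 (SE 0.29, edgeR adjusted p = 0.124). Without WTF 1091, edgeR called 2 of the 41 higher, Esrra and Agpat4, and 4 lower, Agpat3, Plin3, Lipa and Hsd17b13, against 9.64% of all genes. Lipe was called lower without WTF 1091 too, while the edgeR filter left it out of the main comparison within females.

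**Figure D5:**
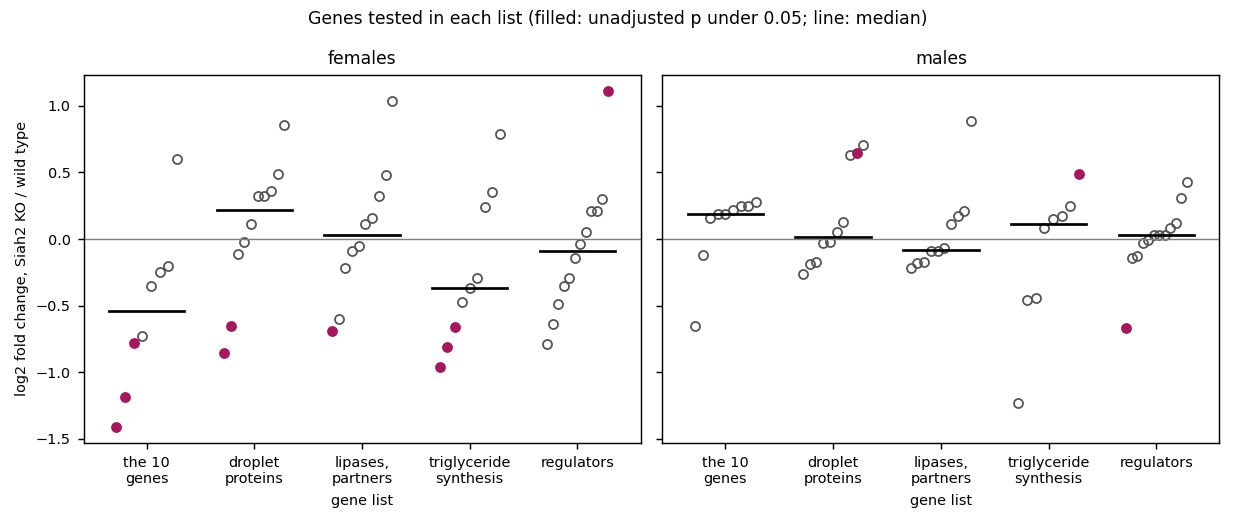
Log2 fold change between Siah2 KO and wild type mice (y axis) of every tested gene of the 10 and of the 4 lists around them, in females and in males, with filled points for an unadjusted p under 0.05 and a line at each median. The median of the 10 genes lies at −0.54 in females and 0.19 in males, and that of the triglyceride synthesis list at −0.37 and 0.12.

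In males, edgeR called 0 of the 40 listed genes tested, against 0.0% of all genes. DESeq2 also called 0, against 0.037% of the genes it tested. At an unadjusted p under 0.05, 2 were higher (Fitm1 and Gpat4) and 1 lower (Ppargc1a), against 4.05% of all genes. Ppargc1a, a coactivator of genes for fatty acid oxidation, had a log2 fold change of −0.67 (SE 0.20, edgeR adjusted p = 1.0), and Fitm1 had 0.65 (SE 0.25, adjusted p = 1.0). With the sexes combined, Esrra had 0.77 and Pnpla6 0.95, both with an edgeR adjusted p of 0.866. For the difference between the sexes, Agpat3 had −1.13 (SE 0.26) with adjusted p values of 0.0792 (edgeR) and 0.00264 (DESeq2). There edgeR called 0 of the 43 listed genes tested, against 0.255% of all genes. DESeq2 called Agpat3 alone of the listed genes, against 3.32% of the genes it tested. Lipe, hormone-sensitive lipase, had −3.40 (SE 1.07, edgeR adjusted p = 0.155) from 1 to 23 reads per mouse.

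Between the sexes, Fitm1, which encodes a protein that buds droplets from the endoplasmic reticulum, was lower in females of both genotypes. It was measured at 7.58 ± 5.13 CPM in WTF against 32.4 ± 3.94 CPM in WTM (log2 fold change −2.08, SE 0.43, edgeR adjusted p = 0.0102). In KO mice it was 9.37 ± 4.79 CPM in females against 50.7 ± 18.5 CPM in males (log2 fold change −2.39, SE 0.42, edgeR adjusted p = 0.00332). Of the 43 listed genes tested, edgeR called Fitm1 alone between wild type sexes and Fitm1 with 3 more between KO sexes, against 5.15% and 3.59% of all genes. DESeq2 called 2 and 7 of them, against 6.95% and 5.58%, and edgeR without WTF 1091 called 7 and 9, against 10.3% and 9.6%. Gpat4, an acyltransferase of the endoplasmic reticulum, was lower in KOF than in KOM by −1.05 (SE 0.24, edgeR adjusted p = 0.0231). Gpd1, which supplies glycerol phosphate, was lower by −1.03 (SE 0.27, edgeR adjusted p = 0.0414). Gpat3 was higher by 2.02 (SE 0.53, edgeR adjusted p = 0.0446), with 12.9 ± 2.20 CPM in KOF and 3.40 ± 2.39 CPM in KOM.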

How the data were processed

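Liver RNA of 12 mice was sequenced after QuantSeq 3′ library preparation. The authors used Illumina's BaseSpace for trimming, mapping and counting, and deposited 1 table of raw counts per gene symbol for each sex, without normalization. The submitters' processing notes name STAR, DESeq and the build mm10, with no versions. The labels describe RNA pooled from 3 mice, while the study's methods describe individual livers, and the latter was used. Symbols turned into dates by spreadsheet software (27, with 0.228% to 0.272% of a library's counts) stayed in the totals.

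Library totals were between 1293688 and 4056144 counts, the median being 2670267.5. Molecular identifiers were absent, and the level of 3 reads covers counting error only. Counts were tested with edgeR 4.0.16 (filterByExpr, TMM scaling, two-sided quasi-likelihood test, R 4.3.3), and p values were adjusted by the Benjamini-Hochberg method over all genes tested, at a threshold of 0.05. Siah2 KO was compared with wild type within females, within males and over both sexes. The difference between the sexes and the comparisons of females with males came from 1 fit of 4 groups. Standard errors were derived from the test statistics, and log CPM used a prior count of 3.

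Alternatives were DESeq2 1.42.0, limma-voom (limma 3.58.1) with and without library weights, RLE scaling, libraries thinned to the smallest total, a minimum of 10 counts in all libraries, no filter beyond 1 count, a term for sex, a fit of 4 groups and each mouse left out. DESeq2 without WTF 1091 was added after the data were seen. The scripts were tested on simulated counts. Relations with Plin2 used exact permutation of mice within groups (1296 permutations), with Cideb left out because only 2 mice had reads, so that 8 relations were adjusted together where 9 were planned. Python 3.11.15, numpy 2.4.6, pandas 2.3.3, scipy 1.17.1 and matplotlib 3.10.9 were used.

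The members, the gene lists and the tests were chosen with earlier results of these data known. All members are named. Of the 4 lists, genes that edgeR called in a comparison are named, or the 2 with the smallest p where it called none, together with the 3 genes most like Plin2. The listed genes called in females without WTF 1091, and Gpat4 in males, were named after their values were seen, while those that other settings called between the sexes are given as counts. Gpat3 and Gpat4 were found under their older symbols Agpat9 and Agpat6. Positions and promoter windows are from RefSeq (GRCm38.p6), matched by symbol.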

Additional observations from a re-analysis of the deposited data

Results flagged for a closer look

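The change of Plin2 between Siah2 KO and wild type mice differed between the sexes by −1.57 on the log2 scale (SE 0.41), and that of Pnpla7 by −1.37 (SE 0.38). For both genes the change was below 0 in females, while in males it was smaller than its SE and not called. The test of this difference gave adjusted p values of 0.0179 for Plin2 and 0.0303 for Pnpla7 by DESeq2, which brought them here, and of 0.108 and 0.117 by edgeR. The log2 fold change of Plin2 was −1.41 in females and 0.16 (SE 0.23) in males. That of Pnpla7 was −1.19 in females and 0.19 (SE 0.20) in males. The male value turned to −0.10 for Plin2 without WTM 1087 and to −0.01 for Pnpla7 without WTM 1086. Groups of 3 mice are too small for a search for single outlying values, and none was made.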

How the results depend on the processing

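With 3 mice a group, calls near the threshold moved with the test, while most directions held. No paired analysis was possible because mouse numbers are not shared between groups. Among genotype comparisons in females, edgeR called 0 genes, and the count was 303 by DESeq2, 1058 by limma-voom with library weights, 484 with no filter beyond 1 count, 427 in the fit of all 4 groups and 828 by DESeq2 without WTF 1091. Under each of these 5 settings 2 members were called, against 0. In males, where edgeR called 0 genes, DESeq2 called 6 and edgeR with no filter beyond 1 count 29. With both sexes combined, the 1 gene called became 0 by limma-voom with and without library weights. For the difference between the sexes, the 25 genes became 260 by DESeq2, 558 by limma-voom with library weights, 325 with no filter beyond 1 count, 8 in thinned libraries and 647 by DESeq2 without WTF 1091, and the 0 members called became 2 under all of these but thinning. Between wild type sexes, the 505 genes became 1130 by limma-voom with library weights, 802 with no filter beyond 1 count and 1076 by DESeq2 without WTF 1091. The 1 member called there became 2 by DESeq2, with no filter beyond 1 count and with at least 10 counts in every library, and 0 with RLE scaling. Between KO sexes, the 352 genes became 1186 by limma-voom with library weights, 664 with no filter beyond 1 count and 938 by DESeq2 without WTF 1091, and the 1 member called became 2 by DESeq2, by limma-voom with library weights, with no filter beyond 1 count and by DESeq2 without WTF 1091. The cause of these moves was not tested.

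With each mouse left out in turn, genes called ranged from 0 to 936 in females (936 without WTF 1091), from 0 to 3 in males, from 0 to 1 with both sexes combined, from 0 to 522 for the difference between the sexes (522 without WTF 1091), from 201 to 1043 between wild type sexes and from 150 to 972 between KO sexes. Members called ranged from 0 to 2 in females and for the difference, from 0 to 1 between wild type sexes and from 0 to 2 between KO sexes.

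No value of Plin2, Pnpla7 or Pnpla2 turned its sign in females or in the difference between the sexes, under any setting. In females, Lpin1 turned to 0.03 by limma-voom and 0.06 with library weights. With single mice left out, Lpin1 ranged from −0.74 to 0.80 and Plin5 from −1.17 to 0.00. In males, where no member was called, leaving out single mice gave ranges across 0 for Plin2 (−0.10 to 0.43), Plin5 (−0.08 to 0.89), Cidec (−0.16 to 0.68), Pnpla2 (−0.27 to 0.07), Pnpla7 (−0.01 to 0.36) and Lpin1 (−0.13 to 0.73). The difference between the sexes ranged across 0 for Cidec (−0.26 to 1.04) and Lpin1 (−1.08 to 0.50). Between wild type sexes it did so for Plin5 (−0.35 to 0.92), Pnpla7 (−0.25 to 0.29), Lpin1 (−1.14 to 0.44) and Dgat1 (−0.03 to 0.27), and Plin5 was −0.13 with library weights while Lpin1 was 0.28 and Dgat1 −0.02 by DESeq2 without WTF 1091. Between KO sexes it did so for Cidec (−0.79 to 0.14) and Gpam (−0.64 to 0.02). Without subtracting group means, r with Plin2 was 0.209 for Cidec, 0.567 for Pnpla7 and −0.188 for Gpam. Without the 2 mice farthest from the median of the centred Plin2 values, r on centred values was 0.0616 for Lpin1, 0.729 for Gpam and 0.451 for Dgat2. Cidec, Cideb and Gpam had at most 25 reads in any mouse, so their values are imprecise, and the reason for the low counts was not tested.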
